A study of Mus musculus with 4 samples.

Results

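The 38 genes described here encode the enzymes and transporters that carry glucose to lactate, the transcription factor subunit Hif1a, the prolyl hydroxylases that limit its stability, and further transcripts known to be induced by low oxygen. The list is one of gene symbols and was drawn up with earlier results of these data known. Of the 38 symbols, 33 had a probe in the table used here. Among these, 29 had a probe with a detection p below 0.01 on each of the 4 arrays in 1 group or more, and these 29 genes were tested among 8248 genes in all. All 29 were in fact detected on each of the 16 arrays. The other 4, Bnip3, Car9, Mxi1 and Pfkfb3, had highest deposited intensities of 30.9, 25.6, 42.2 and 24.8, and no comparison was made for them. Ankrd37, Eno1, Ero1a, Gpi1 and Ldhb were not analysed here.

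The study used mouse embryonic stem (ES) cells, given as E14 in the labels, and Illumina bead arrays. The cells had received short hairpin RNAs by lipofection: a hairpin against GFP as the control, against Esrrb, against Sox2, or against Esrrb and Sox2 together (the dual knockdown). Both targets are transcription factors that sustain the ES cell state, Esrrb as a nuclear receptor without a known natural ligand and Sox2 as a partner of Oct4. All groups, the control included, grew under the usual ES cell conditions and were selected with puromycin for 2 days before RNA was taken. The labels give neither the oxygen level nor a treatment with low oxygen. Each group holds 4 arrays, lettered A to D, and whether these come from separate transfections is not in the labels. The p-values therefore speak to the variation among these arrays, part or all of which could be technical. The RNA came from whole cultures, in which fewer cells of a type and less RNA per cell cannot be told apart.

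Glycolysis splits glucose into pyruvate in the cytosol. ES cells are known to run it at a high rate in air and to release much of the product as lactate. Where oxygen is present, prolyl hydroxylases (the Egln proteins) mark HIF-1alpha for degradation through the von Hippel-Lindau protein. When oxygen falls, HIF-1alpha accumulates, pairs with Arnt and binds a short core sequence near its targets, among them most glycolytic genes, Pdk1, Egln3, Ndrg1 and the collagen prolyl hydroxylases. Hif1a is itself controlled chiefly at the protein level, which arrays of RNA do not measure.

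The hairpins lowered their targets. The Esrrb probe had a mean intensity of 12841 with the GFP hairpin, 2691 with the Esrrb hairpin, 4804 with the Sox2 hairpin and 3253 with both (n = 4 each), log2 differences from GFP of -2.11, -1.21 and -1.77 with an SE of 0.07. Sox2 differed from GFP by -0.55, -0.45 and -0.93 (SE 0.08). Of 10 ES cell markers, 6, 9 and 9 were lower than with GFP. Of 11 kept trophectoderm markers 5, 9 and 9 were higher and 1, 0 and 0 lower. The summed intensity of those 11 trophectoderm markers ran from 9851 to 10987 on the GFP arrays and from 9837 to 10732 on the Esrrb arrays, but from 25283 to 30745 on the Sox2 arrays and from 26531 to 35097 on the dual arrays. The sum of the 10 ES cell markers ran from 69653 to 71786, from 62790 to 72506, from 57310 to 60417 and from 54096 to 59356 in the same order. Eomes and Elf5, defining trophoblast genes, did not reach detection on all 4 arrays of any group. Nor did Gata4, Foxa2, Afp and Ttr of the extraembryonic endoderm list, or Col1a2, Col3a1, Col5a2, Dcn, Lum and Postn of the fibroblast list. Fbn1 of the fibroblast list was not analysed here. Of 6 kept endoderm markers 0, 2 and 2 were called higher and 1, 1 and 1 lower, shares of 16.7, 50 and 50%. Of 5 kept fibroblast markers 0, 2 and 1 were higher and 0, 1 and 1 lower, shares of 0, 60 and 40%. Of all genes, 11.6, 43.2 and 44.4% were called. The A and B arrays detected 11286 to 12054 probes each and the C and D arrays 12994 to 13322, in every group, so the letters form 2 array sets.

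Most of the enzymes and transporters of glycolysis, Slc2a1, Gapdh, Ldha and Pkm among them, passed the test in none of the 3 knockdowns, and those that changed went in both directions. Most of all genes were not called either: 11.6, 43.2 and 44.4% of them passed with the Esrrb hairpin, the Sox2 hairpin and both. Without array B of the dual knockdown, Slc2a1 passed with the Sox2 hairpin and with both. Pfkp and Pdk1 fell with each hairpin and with both, and Egln3 and Ndrg1 rose with each and with both. With the Esrrb hairpin, none of these genes passed on the A and B arrays alone, which leave 2 arrays per group. The Pdk1 call with that hairpin was also lost in refits that left out 1 array. Eno3, Egln1 and P4ha2 rose with the Sox2 hairpin and with both, by factors between 1.54 and 2.03, and did not pass the test with the Esrrb hairpin. Hif1a itself passed in none of the 3 comparisons.

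Calls rest on a limma fit to all 8248 genes, with the adjusted p (Benjamini-Hochberg) below 0.05 as the threshold. The fit had 1 mean per group and used quantile-normalized log2 intensities. An offset of 16 was added before taking log2, which makes the differences of dim probes, such as those of Egln1 and Hif1a, smaller than the ratios of their intensities. With the Esrrb hairpin 5 of the 29 members were called, 3 higher and 2 lower, which is 17.2% of the members against 11.6% of all genes. The Sox2 hairpin called 12 members, 9 higher and 3 lower, 41.4% against 43.2% of all genes. Both hairpins together also called 12, 8 higher and 4 lower, 41.4% against 44.4%. The members' shares for the Sox2 hairpin and for both were thus near those of the genes at large. Of all genes, 5.86, 21.7 and 22.1% were called higher and 5.77, 21.5 and 22.3% lower in the 3 comparisons. The members' median log2 difference was 0.03 with the Esrrb hairpin, 0.18 with the Sox2 hairpin and 0.12 with both, beside medians of all genes of 0.00, -0.00 and -0.01. Without normalization between arrays the median of all genes itself lay at -0.10, -0.14 and -0.14, and the members' calls split 1 higher to 4 lower, 5 to 4 and 5 to 5. The 3 comparisons share the GFP arrays, so their values are given side by side and not as independent tests.

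**Figure D1:**
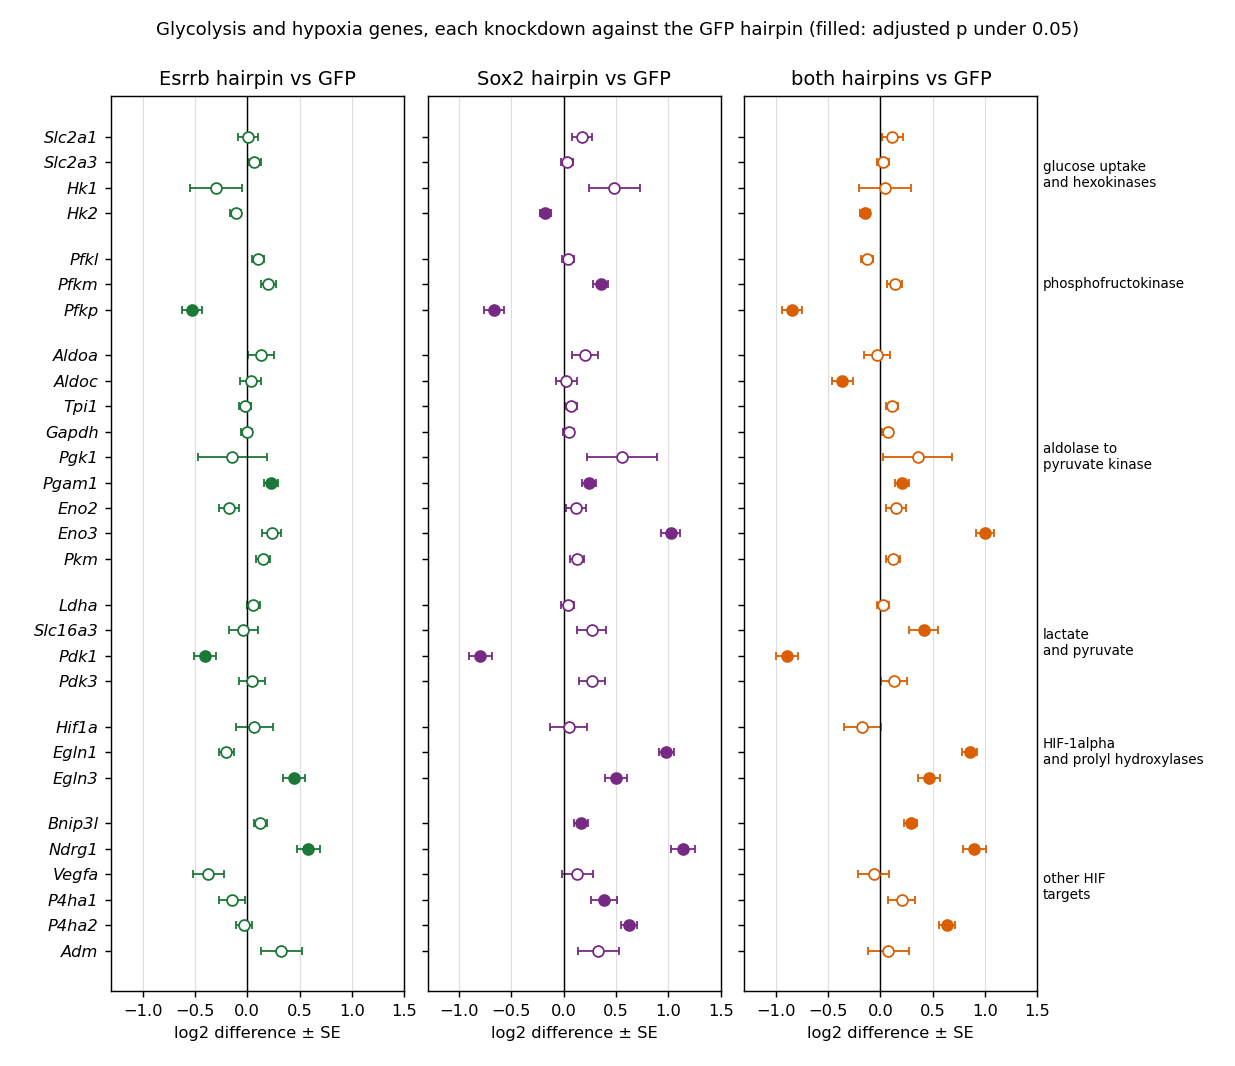
Log2 difference from the GFP hairpin (x axis, ± SE from the limma fit over 16 arrays) for each of the 29 members tested, ordered by role, with the Esrrb hairpin, the Sox2 hairpin and both hairpins in the 3 panels. Filled points passed an adjusted p of 0.05. Pfkp and Pdk1 lie left of 0 in every panel, Ndrg1 and Egln3 right of 0, and most glycolytic enzymes lie close to 0.

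Glucose enters ES cells chiefly through the facilitative transporters Slc2a1 and Slc2a3 and is phosphorylated by the hexokinases Hk1 and Hk2. The Slc2a1 probe read 19421, 19797, 16960.1 and 18328 on GFP arrays A to D and 17273, 17966, 16922 and 16576.5 with the Esrrb hairpin. It read 19709, 18903.5, 19921 and 19952 with the Sox2 hairpin and 20575, 13329, 20128 and 18755 with both. Array B of the dual knockdown lies below every other array, and its group spans all the others. The log2 differences from GFP were 0.01, 0.18 and 0.12 (SE 0.10), with 95% intervals from -0.20 to 0.21, -0.03 to 0.38 and -0.09 to 0.32. Without dual array B the dual value was 0.24, adjusted p 0.0038, and the Sox2 value, which shares the estimate of the spread, was 0.17, adjusted p 0.0167. Slc2a3 differed by 0.07, 0.03 and 0.02 (SE 0.06) and was not called.

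Hk2, the hexokinase that sits on mitochondria and is a known HIF target, was lower in 2 comparisons. Its intensity lay between 13577 and 14217 with GFP, between 11530.0 and 12351 with the Esrrb hairpin, between 10473 and 11399.5 with the Sox2 hairpin and between 10056 and 11715.5 with both. All 12 knockdown arrays read below all 4 GFP arrays. After normalization the differences were small: -0.11 (adjusted p 0.196), -0.18 (adjusted p 0.0113) and -0.15 (adjusted p 0.0281), SE 0.05. The dual call was lost without GFP array B, GFP array D, dual array B or dual array D, at adjusted p-values of 0.0617, 0.0519, 0.0527 and 0.0602. Hk1, the hexokinase found in most tissues, spread from 33.9 to 142 over all arrays and was not called against GFP, with an SE of 0.25. With the array letter as a block, Hk1 passed for the Sox2 hairpin (log2 0.48, adjusted p 0.0235 against 0.128 without the block).

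Phosphofructokinase catalyses the first step that commits sugar to glycolysis, and its subunits come from 3 genes: Pfkl (liver), Pfkm (muscle) and Pfkp (platelet). Pfkp was the member of this step that fell. The Pfkp probe read 4958, 4538, 5329.6 and 5005 on the GFP arrays and 2879, 2977, 3399 and 3315 with the Esrrb hairpin. It read 2799, 2404, 2915 and 2925 with the Sox2 hairpin and 2133, 2527, 2718 and 2428 with both. Every knockdown array was thus below every GFP array, and the lowest reading came from dual array A. Pfkp differed from GFP by -0.53 with the Esrrb hairpin (adjusted p 0.00154), by -0.66 with the Sox2 hairpin (adjusted p 4.27e-05) and by -0.84 with both (adjusted p 3.71e-06), each with an SE of 0.10. A further Pfkp probe gave -0.53, -0.62 and -0.87. Restricted to arrays A and B the Esrrb value was -0.60 (adjusted p 0.0653), and restricted to C and D it was -0.46 (adjusted p 0.0385).

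Pfkm and Pfkl did not fall with Pfkp against GFP. Pfkm rose with the Sox2 hairpin by 0.35 (SE 0.07, adjusted p 9.65e-04), with all 4 Sox2 arrays, at 1776 to 2008, above the GFP arrays at 1547 to 1679. Its values with the Esrrb hairpin and with both were 0.20 and 0.14 and did not pass. Pfkl gave 0.10, 0.04 and -0.12 (SE 0.06), none called. The difference between Pfkp and Pfkm taken within each array was lower than with GFP by 0.73, 1.02 and 0.98 log2 units, with no overlap between the arrays.

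The Pfkp window of 250 bases before the RefSeq start (chr13:6648772-6649021, minus strand, build GRCm38.p6) is shown because Pfkp is the glycolytic enzyme that fell in every knockdown. Capitals mark the letters ACGTG or GCGTG, the HIF core, or their reverse complements CACGT and CACGC.
Pfkp: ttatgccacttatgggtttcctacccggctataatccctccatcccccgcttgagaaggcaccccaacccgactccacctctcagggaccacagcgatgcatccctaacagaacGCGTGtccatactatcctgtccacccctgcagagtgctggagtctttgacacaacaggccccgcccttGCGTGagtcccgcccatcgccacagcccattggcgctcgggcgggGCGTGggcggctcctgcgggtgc
The window holds GCGTG with its first base 136, 68 and 23 bases before the start. It holds none of the 3 motifs searched for the targeted factors, AAGGTCA for Esrrb and CATTGTT or CTTTGTT for Sox2.

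Between fructose bisphosphate and pyruvate lie aldolase, triosephosphate isomerase (Tpi1), glyceraldehyde phosphate dehydrogenase (Gapdh), phosphoglycerate kinase (Pgk1), phosphoglycerate mutase (Pgam1), enolase and pyruvate kinase (Pkm). Of all genes, 11.6, 43.2 and 44.4% were called with the Esrrb hairpin, the Sox2 hairpin and both. Of the 9 members of this stretch that were tested, 1, 2 and 3 were called. Eno3, the enolase known from muscle, had the largest difference of them. The Eno3 probe read 177, 203, 197 and 187 on the GFP arrays and 199.7, 247, 188 and 215 with the Esrrb hairpin. It read 375, 368, 335 and 402 with the Sox2 hairpin and 373, 375, 377 and 341.5 with both. All 8 arrays carrying a Sox2 hairpin lay above all others, while the GFP and Esrrb arrays overlapped. Eno3 rose by 1.02 with the Sox2 hairpin (SE 0.09, adjusted p 2.62e-07) and with both it was 2.00-fold higher (adjusted p 2.82e-07). With the Esrrb hairpin the difference was 0.23, adjusted p 0.109, or 0.0461 with the array letter as a block. Blocking on the array set instead gave 0.0695.

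Pgam1 rose by 0.23, 0.24 and 0.21 (SE 0.07), with adjusted p-values of 0.0345, 0.00719 and 0.0171, and the Esrrb call was lost without any of 7 arrays, with an adjusted p of up to 0.0983. Aldoc, the aldolase known from brain, fell with both hairpins by 0.36 (SE 0.10, adjusted p 0.00716), from 952 to 1131 on the GFP arrays to 631.5 to 820.1. Its values with either hairpin alone were 0.03 and 0.02. Gapdh gave -0.00, 0.05 and 0.07 (SE 0.05) and Tpi1 -0.02, 0.07 and 0.12 (SE 0.06), neither called. A dimmer Tpi1 probe went the other way with both hairpins: it gave -0.20, -0.29 and -0.39. The last of these passed in a limma fit over all probes, kept or not (adjusted p 0.0123). Pkm gave 0.15, 0.12 and 0.12 (SE 0.07). Pgk1 gave -0.14, 0.56 and 0.36 (adjusted p 0.852, 0.192 and 0.408), none called. It had the widest error of the members, an SE of 0.33, and its Esrrb arrays alone ran from 109 to 570.1.

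Eno3 is shown because it is the glycolytic enzyme that rose most (chr11:70656926-70657175, plus strand, 250 bases before the start, capitals as above).
Eno3: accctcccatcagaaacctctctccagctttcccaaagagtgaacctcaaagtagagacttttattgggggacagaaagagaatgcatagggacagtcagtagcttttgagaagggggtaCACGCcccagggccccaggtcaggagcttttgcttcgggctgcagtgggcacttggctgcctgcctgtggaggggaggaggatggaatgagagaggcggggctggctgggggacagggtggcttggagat
The reverse complement of GCGTG stands 130 bases before the Eno3 start, and none of the Esrrb or Sox2 motifs was found.

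At the end of the pathway lactate dehydrogenase (Ldha) turns pyruvate into lactate, Slc16a3 exports it, and the kinases Pdk1 and Pdk3 hold pyruvate out of the mitochondrion by inhibiting pyruvate dehydrogenase. Pdk1, a known HIF target, fell in all 3 knockdowns. The Pdk1 probe read 1237, 1504, 1539 and 1496.5 on the GFP arrays and 1029, 1084, 922.5 and 964 with the Esrrb hairpin. It read 669, 771, 807 and 690.5 with the Sox2 hairpin and 815, 524.5, 687 and 782 with both. No knockdown array reached the lowest GFP array, and every Esrrb array lay above every array with a Sox2 hairpin. The differences from GFP were -0.40 (adjusted p 0.0194), -0.80 (adjusted p 1.94e-05) and -0.89 (adjusted p 5.71e-06), each with an SE of 0.11. The Esrrb call was lost without GFP array B (adjusted p 0.0538), GFP array C (0.0528) or Esrrb array C (0.0630). Within the A and B arrays it was -0.28 (adjusted p 0.39) and within C and D -0.53 (adjusted p 0.0776).

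Ldha differed from GFP by 0.06, 0.04 and 0.02 (SE 0.06), with 95% intervals no wider than from -0.10 to 0.19, and was not called. Pdk3 gave 0.05, 0.27 and 0.13 (SE 0.12), also not called. Slc16a3, the lactate exporter known to be induced by hypoxia, rose with both hairpins by 0.41 (SE 0.14, adjusted p 0.0232). Its deposited intensities, 49.0 to 76.7 with GFP and 67.4 to 113 with both, overlap, and the call was lost without GFP array A (adjusted p 0.0841) or dual array A (0.0831). A further, dimmer Slc16a3 probe that was kept went the other way with both hairpins: it gave -0.20, 0.14 and -0.18. In a limma fit over all probes, kept or not, the brighter probe did not pass with both hairpins (adjusted p 0.0611).

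Pdk1 has 2 RefSeq starts in the table. The window with a HIF core is shown (chr2:71872974-71873223, plus strand, 250 bases before the start, capitals as above), because Pdk1 fell where other HIF targets rose.
Pdk1: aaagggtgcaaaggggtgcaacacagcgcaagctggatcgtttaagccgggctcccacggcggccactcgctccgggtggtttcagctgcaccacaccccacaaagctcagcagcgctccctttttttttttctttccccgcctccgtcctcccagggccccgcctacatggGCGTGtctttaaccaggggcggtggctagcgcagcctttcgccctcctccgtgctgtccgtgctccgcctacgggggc
GCGTG stands 78 bases before this start, and the other Pdk1 window holds neither core. Neither window holds an Esrrb or Sox2 motif of those searched.

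**Figure D2:**
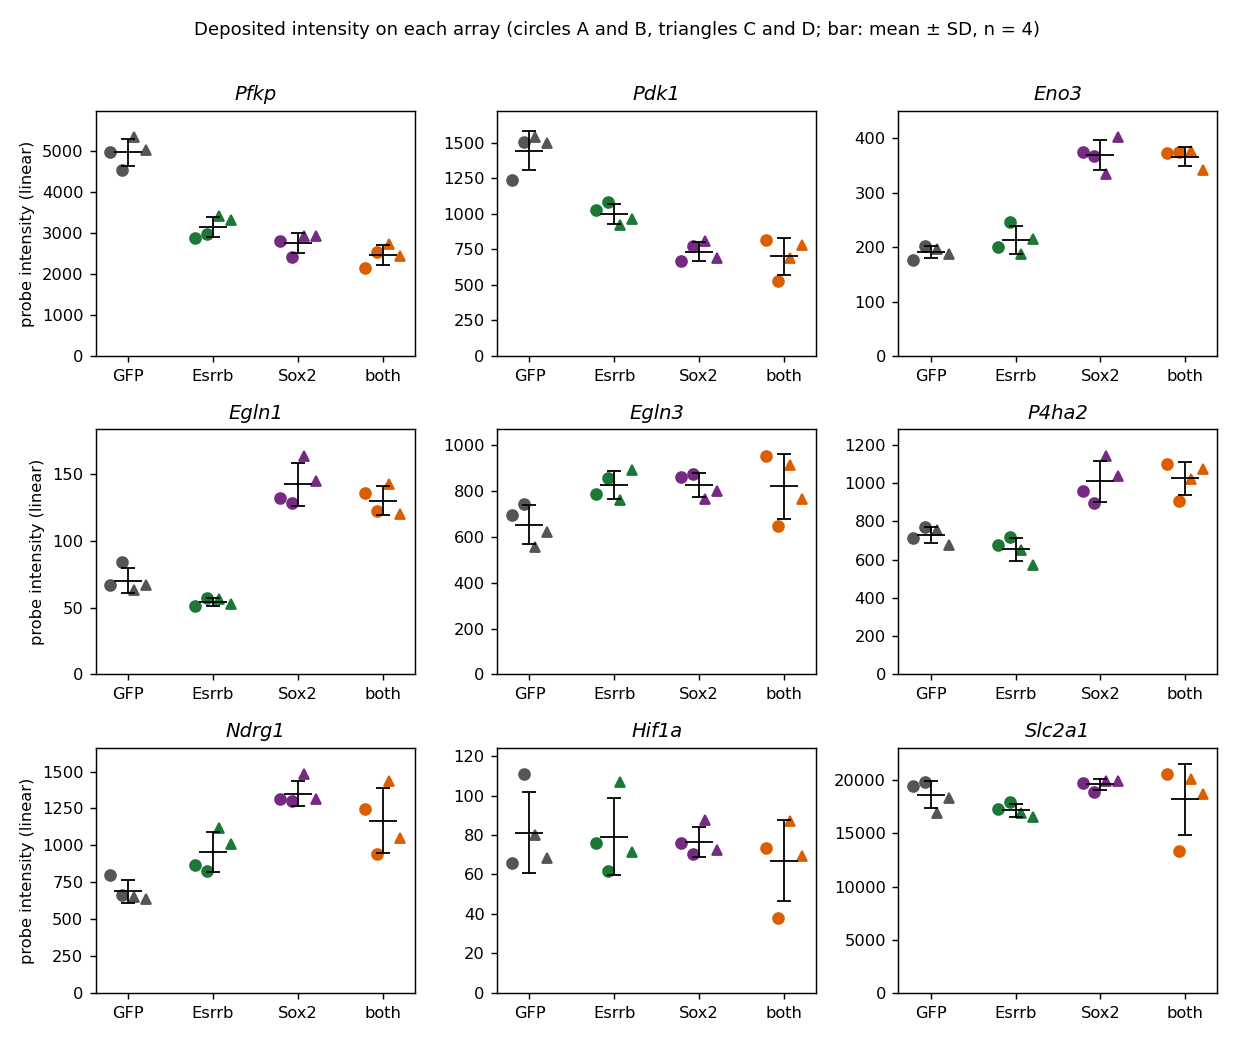
Deposited probe intensity (y axis, linear, not normalized) on each of the 16 arrays for Pfkp, Pdk1, Eno3, Egln1, Egln3, P4ha2, Ndrg1, Hif1a and Slc2a1, by hairpin group. Circles are arrays A and B, triangles C and D, and bars are the mean ± SD of 4 arrays. Pfkp and Pdk1 are lower in all 3 knockdown groups than with GFP, and Eno3, Egln1 and P4ha2 are higher in the Sox2 and dual groups than with GFP.

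Hif1a, the oxygen-regulated subunit, was not called in any comparison. The Hif1a probe read 65.7, 111, 80.0 and 68.4 on the GFP arrays and 76.0, 61.7, 107 and 71.6 with the Esrrb hairpin. It read 75.8, 70.6, 87.4 and 72.4 with the Sox2 hairpin and 73.4, 38.2, 87.2 and 69.4 with both. All groups overlap. The differences were 0.07, 0.05 and -0.17 (SE 0.18), and the 95% intervals from -0.31 to 0.44, -0.33 to 0.42 and -0.55 to 0.21 span 0 in each case.

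Egln1, the main oxygen sensor among the prolyl hydroxylases, rose wherever the Sox2 hairpin was present. The Egln1 probe read 66.9, 83.8, 62.8 and 66.8 on the GFP arrays and 51.5, 57.0, 56.4 and 52.4 with the Esrrb hairpin. It read 132, 128, 164 and 145 with the Sox2 hairpin and 136, 122, 143 and 119.8 with both. All arrays with a Sox2 hairpin lay above all GFP arrays, and all Esrrb arrays lay below them. Egln1 rose by 0.98 with the Sox2 hairpin (SE 0.07, adjusted p 4.28e-08) and by 0.86 with both (adjusted p 1.52e-07). With the Esrrb hairpin it differed by -0.20 (adjusted p 0.0867), and without normalization between arrays by -0.29 (adjusted p 0.0421), with the median of all genes at -0.10. A further Egln1 probe gave -0.31, 0.71 and 0.57.

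Egln3, the hydroxylase most strongly induced by HIF, rose in all 3 knockdowns. The Egln3 probe read 696, 743, 554 and 620.2 on the GFP arrays and 785, 857, 761.5 and 892.5 with the Esrrb hairpin. It read 860.5, 876, 766 and 802 with the Sox2 hairpin and 954, 648, 914 and 764 with both. Every Esrrb and Sox2 array was above every GFP array, while dual array B fell within the GFP range before normalization. Egln3 rose by 0.45 (adjusted p 0.0102), 0.50 (adjusted p 0.00125) and 0.47 (adjusted p 0.00205), each with an SE of 0.11. Within the A and B arrays the Esrrb and dual values were 0.27 (adjusted p 0.281) and 0.28 (adjusted p 0.121), and within C and D 0.62 (adjusted p 0.0331) and 0.65 (adjusted p 0.00584).

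The windows before the starts of Egln1 (chr8:124949255-124949504, minus strand) and Egln3 (chr12:54203875-54204124, minus strand) are shown together. The reason is that with the Esrrb hairpin Egln3 was called higher and Egln1 was not called.
Egln1: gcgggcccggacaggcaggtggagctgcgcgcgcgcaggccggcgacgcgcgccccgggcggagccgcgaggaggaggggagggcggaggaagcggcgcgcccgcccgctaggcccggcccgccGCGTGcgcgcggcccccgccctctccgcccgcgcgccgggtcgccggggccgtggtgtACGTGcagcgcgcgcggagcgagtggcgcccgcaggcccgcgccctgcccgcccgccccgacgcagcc
Egln3: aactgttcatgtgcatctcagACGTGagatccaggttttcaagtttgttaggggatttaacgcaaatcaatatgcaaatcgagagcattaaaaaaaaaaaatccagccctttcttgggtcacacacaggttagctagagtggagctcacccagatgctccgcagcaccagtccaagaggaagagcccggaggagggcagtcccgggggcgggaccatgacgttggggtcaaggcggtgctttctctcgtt
Egln1 holds GCGTG 126 and ACGTG 68 bases before its start, and Egln3 holds ACGTG 229 bases before its start. None of the Esrrb or Sox2 motifs was found in either.

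The remaining HIF targets include Ndrg1, a stress-induced gene of unsettled molecular role, P4ha1 and P4ha2, the catalytic subunits of collagen prolyl 4-hydroxylase, the mitophagy receptor Bnip3l, and the secreted factors Vegfa and Adm. Ndrg1 rose in all 3 knockdowns. Its probe read 800.1, 665, 649.6 and 637 on the GFP arrays and 870.1, 825, 1119.5 and 1011 with the Esrrb hairpin. It read 1312, 1300.2, 1483 and 1311 with the Sox2 hairpin and 1246, 941, 1435 and 1049 with both. Every knockdown array lay above every GFP array, and every Sox2 array lay above every Esrrb array. The dual arrays overlapped both of those groups. Ndrg1 rose by 0.58 (adjusted p 0.00269), 1.14 (adjusted p 1.08e-06) and 0.90 (adjusted p 1.09e-05), each with an SE of 0.11, and a further probe gave 0.51, 1.03 and 0.59. Within the A and B arrays the Esrrb value was 0.30 (adjusted p 0.254) and within C and D 0.86 (adjusted p 0.0173).

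P4ha2 rose with the Sox2 hairpin and with both. The P4ha2 probe read 711.5, 769.5, 758 and 675 on the GFP arrays and 675, 719, 649 and 573 with the Esrrb hairpin. It read 962, 894, 1144 and 1039 with the Sox2 hairpin and 1099, 905, 1021 and 1076 with both. The 8 arrays with a Sox2 hairpin lay above the other 8. P4ha2 differed from GFP by -0.03 (SE 0.08, adjusted p 0.866, 95% interval -0.19 to 0.13), 0.62 (adjusted p 9.61e-06) and 0.64 (adjusted p 7.12e-06). P4ha1 rose with the Sox2 hairpin by 0.38 (SE 0.13, adjusted p 0.0230), a call lost without GFP array C (adjusted p 0.0728), Sox2 array B (0.0654) or Sox2 array C (0.0593).

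Bnip3l rose with both hairpins by 0.29 (SE 0.06, adjusted p 0.00185). Its value with the Sox2 hairpin, 0.17, passed narrowly at an adjusted p of 0.0479, gave 0.0522 with the array letter as a block and 0.0447 with the array set, and missed the threshold without any of 13 arrays, with an adjusted p of up to 0.156. Vegfa gave -0.37, 0.13 and -0.06 (SE 0.15) and Adm 0.32, 0.33 and 0.08 (SE 0.20), none of which passed. All 4 Esrrb arrays of Vegfa, at 380.2 to 527.5, read below the GFP arrays at 603 to 723, though the adjusted p was 0.124. A further, dimmer Vegfa probe gave -0.28, 0.40 and 0.18. Its Sox2 value passed in a limma fit over all probes, kept or not (adjusted p 0.0286).

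The P4ha2 window (chr11:54100674-54100923, plus strand) is shown because it holds 3 cores within a short stretch.
P4ha2: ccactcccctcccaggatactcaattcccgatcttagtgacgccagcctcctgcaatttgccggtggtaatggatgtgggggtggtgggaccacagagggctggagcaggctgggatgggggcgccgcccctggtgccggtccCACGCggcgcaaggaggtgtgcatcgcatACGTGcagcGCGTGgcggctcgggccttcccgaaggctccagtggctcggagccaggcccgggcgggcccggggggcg
The cores begin 107, 78 and 69 bases before the start, the first as a reverse complement. Over all members, 26 had 37 such windows in the table, with Slc2a3, Bnip3l and Ndrg1 named only. ACGTG, read on both strands, stood in the windows of 16 of 26 members (18 of 37 windows), against 16.6% of 32851 windows of all genes and 21.8% of 8651 windows of genes tested here. GCGTG stood in those of 17 members (19 of 37 windows), against 28.2 and 44.6%. The Esrrb motif AAGGTCA stood in 0 of the 37 windows, against 4.08% of all windows and 2.89% of those of tested genes. The Sox2 motifs also stood in 0, against 3.29 and 1.43% for the first of them, CATTGTT, and 5.03 and 3.24% for CTTTGTT. These matches describe letters in a window and are not binding sites. The core stands before genes that fell (Pfkp, Pdk1) and before genes that rose (Egln1, Egln3, P4ha2, Eno3). It also stands before members not called against GFP, Ldha, Gapdh, Hif1a and Pdk3 among them. A part of HIF in these changes was not tested.

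Egln1, Eno3 and P4ha2 rose in the same 2 groups in which the trophectoderm markers had their high sums and the ES cell markers their low ones, and the part of that shift in these results was not tested. Pfkp, Pdk1, Egln3 and Ndrg1 were also called with the Esrrb hairpin, where the summed trophectoderm intensity overlapped that of GFP. There 5 of 11 trophectoderm markers were called higher and 1 lower, and 6 of 10 ES cell markers were called lower. The part of that shift was not tested here either.

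The direct comparison of the Esrrb with the Sox2 hairpin asks which members differ between these knockdowns. Each hairpin lowered the RNA of both factors against GFP: Esrrb by -2.11 and -1.21 and Sox2 by -0.55 and -0.45. The comparison therefore does not separate the loss of Esrrb from that of Sox2. It called 9 of the 29 members, 1 higher and 8 lower with the Esrrb hairpin, 31% against 43.1% of all genes. Of all genes 21% were called higher and 22.1% lower. Egln1 was lower with the Esrrb than with the Sox2 hairpin by a log2 difference of -1.18 (SE 0.07, adjusted p 6.77e-09), a 2.26-fold difference. Eno3 differed by -0.79 (SE 0.09, adjusted p 4.57e-06), P4ha2 by -0.65 (SE 0.08, adjusted p 6.95e-06) and Ndrg1 by -0.55 (SE 0.11, adjusted p 0.00106). These 4 genes thus stood higher when Sox2 rather than Esrrb was targeted.

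The other members lower with the Esrrb hairpin were P4ha1 (-0.53, SE 0.13), Vegfa (-0.50, SE 0.15), Hk1 (-0.78, SE 0.25) and Eno2 (-0.29, SE 0.10), with adjusted p-values of 0.00338, 0.0120, 0.0183 and 0.0241. The Hk1 call was lost without Esrrb array C (adjusted p 0.0652) or D (0.0501), and the Eno2 call without Esrrb array B, Esrrb array D or Sox2 array C (up to 0.0856). Pdk1 was the member that was higher with the Esrrb hairpin, by 0.39 (SE 0.11, adjusted p 0.00717). Pfkp and Egln3 did not differ beyond the spread, at 0.13 (95% interval -0.07 to 0.34) and -0.05 (95% interval -0.28 to 0.17). Pgam1 gave -0.02, with an interval from -0.16 to 0.12.

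Adding the Sox2 hairpin to the Esrrb hairpin, read as the dual against the Esrrb knockdown, called 11 members, 7 higher and 4 lower, 37.9% against 40.2% of all genes (20.6% higher, 19.6% lower). Sox2 RNA differed by -0.38 in this comparison and Esrrb RNA by 0.34, both called. The comparison therefore does not read the loss of Sox2 alone. Egln1 was higher by 1.06 (SE 0.07, adjusted p 3.90e-08), Eno3 by 0.77 (SE 0.09, adjusted p 7.27e-06) and P4ha2 by 0.67 (SE 0.08, adjusted p 6.88e-06). Slc16a3 (0.45), P4ha1 (0.35), Eno2 (0.32) and Ndrg1 (0.31) followed, each losing its call without at least 1 array. Ndrg1 missed the threshold without Esrrb array A, Esrrb array B, dual array A or dual array C, at up to 0.120. The Slc16a3 call went without Esrrb array C or dual array A (up to 0.0585), the P4ha1 call without any of 6 arrays (up to 0.131) and the Eno2 call without Esrrb array D (0.0540).

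Pdk1 was lower with both hairpins than with the Esrrb hairpin alone by -0.49 (SE 0.11, adjusted p 0.00172), Aldoc by -0.40 (SE 0.10, adjusted p 0.00492), Pfkp by -0.31 (SE 0.10, adjusted p 0.0166) and Pfkl by -0.22 (SE 0.06, adjusted p 0.00586). The Pfkp call was lost without Esrrb array C, Esrrb array D or dual array A (adjusted p up to 0.0550), and the Pfkl value changed sign when its kept probes were averaged. Against the Sox2 hairpin alone, both hairpins gave a difference of -0.10 for Pdk1 (95% interval -0.32 to 0.13) and of -0.18 for Pfkp (-0.38 to 0.02), and neither passed.

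Adding the Esrrb hairpin to the Sox2 hairpin called 1 member, 3.45% against 6.41% of all genes (3.2% higher, 3.21% lower). Esrrb RNA differed by -0.56 in this comparison and Sox2 RNA by -0.48, both called, so it does not read the loss of Esrrb alone. Aldoc was lower with both than with the Sox2 hairpin by -0.39 (SE 0.10, adjusted p 0.0286). The call was lost without Sox2 array B, Sox2 array C, dual array B or dual array D, at adjusted p-values from 0.0636 to 0.0986. For Egln1, Eno3 and P4ha2 the dual and Sox2 groups differed by -0.12 (95% interval -0.28 to 0.03), -0.02 (-0.21 to 0.17) and 0.01 (-0.15 to 0.18).

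The interaction, the dual knockdown minus the sum of both single effects, passed for 2 members, both lower, 6.9% against 2.89% of all genes (1.61% higher, 1.27% lower). Ndrg1 rose less with both hairpins than the sum of its single rises, by -0.82 (SE 0.16, 95% interval -1.16 to -0.48, adjusted p 0.0105). The single effects of 0.58 and 1.14 stand beside 0.90 with both. Pfkm gave -0.42 (SE 0.10, adjusted p 0.0390), a call lost without any of 12 arrays, at adjusted p-values of up to 0.0818. Egln3, which rose by 0.45, 0.50 and 0.47, had an interaction of -0.49 (SE 0.15) at an adjusted p of 0.101. The interaction for Pfkp was 0.35 (SE 0.13, adjusted p 0.198) and for Pdk1 0.31 (SE 0.15, adjusted p 0.332). Esrrb RNA itself differed by -2.11 between the Esrrb hairpin and GFP, but by only -0.56 between both hairpins and the Sox2 hairpin. The interaction therefore does not compare equal losses of Esrrb RNA. The part of this difference in the values for Ndrg1 and Pfkm was not tested.

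Genes of 1 family were also set against each other within an array, as the difference of their normalized log2 values. The 9 pairs were chosen after the values of the members had been seen, so the differences are a description and were not tested. They remain subject to the normalization and the offset, which weigh most on dim probes such as those of Egln1 and Hk1. Pfkp moved down against Pfkl by 0.63, 0.70 and 0.72 log2 units with the Esrrb hairpin, the Sox2 hairpin and both. The muscle and brain enolases parted too: Eno3 minus Eno2 lay 0.91 and 0.86 above GFP with the Sox2 hairpin and with both, without overlap, and 0.41 above with the Esrrb hairpin, with overlap.

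Pdk1 moved down against Pdk3 by 0.45, 1.06 and 1.02. Egln1 against Egln3 changed direction between the hairpins. The pair stood 0.65 lower than with GFP on the Esrrb arrays and 0.48 and 0.39 higher on the Sox2 and dual arrays, without overlap in any of them. Hk2 minus Hk1 was lower with the Sox2 hairpin by 0.66. Aldoc minus Aldoa, P4ha2 minus P4ha1 and Slc2a1 minus Slc2a3 overlapped with GFP in all 3 groups.

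**Figure D3:**
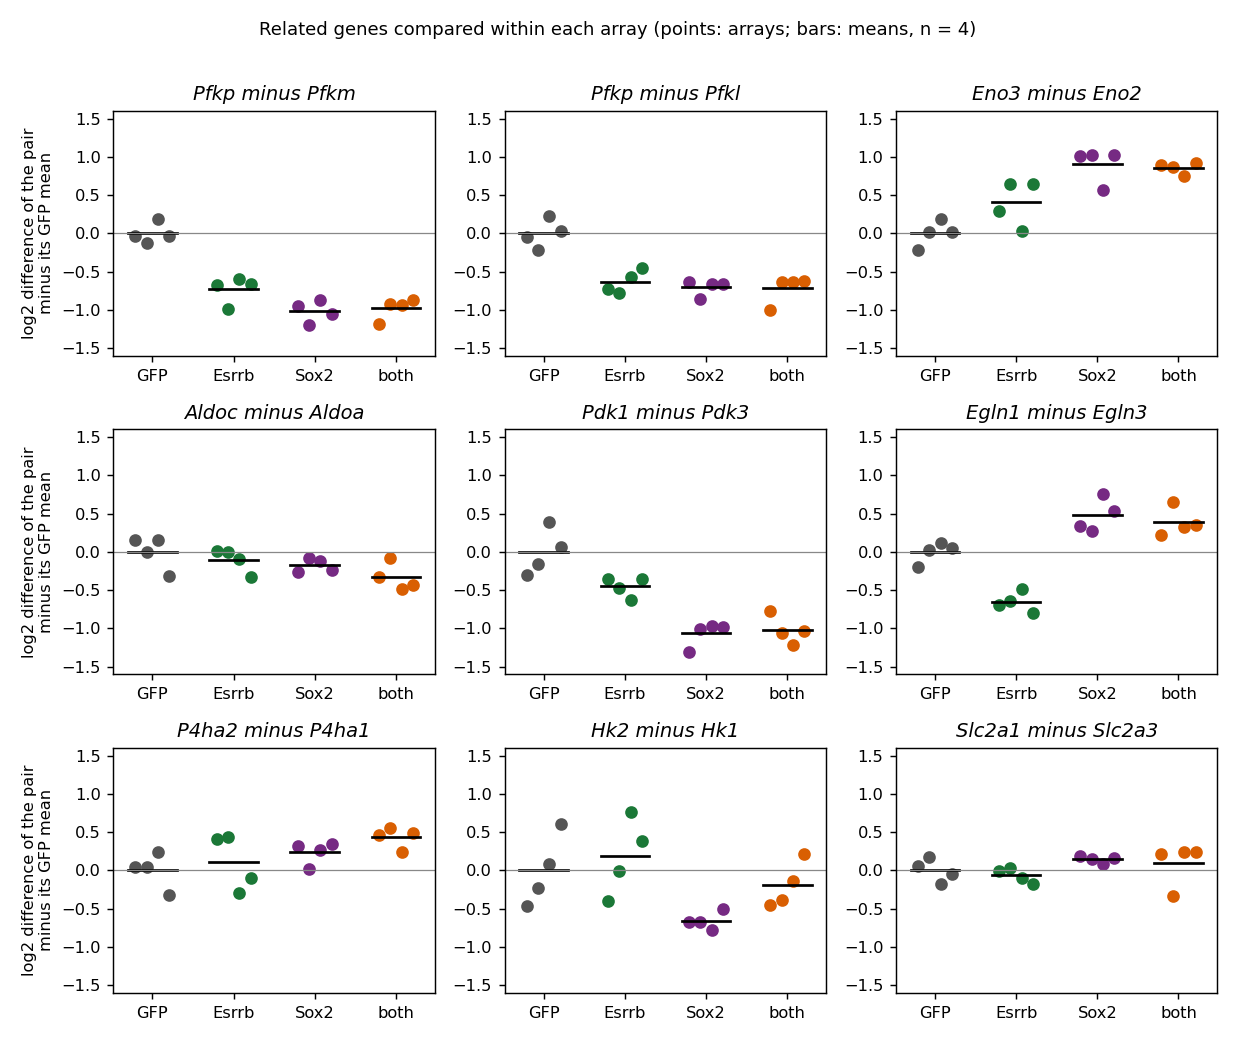
Log2 difference between 2 related genes on the same array, minus the mean of that difference on the GFP arrays (y axis), for 9 pairs and 4 hairpin groups. Points are arrays and bars are means of 4. The Pfkp pairs and the Pdk1 pair lie below the GFP arrays in all knockdown groups, and the Egln1 and Egln3 pair lies below them with the Esrrb hairpin and above them with the Sox2 hairpin.

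Genes of the same pathways outside the 38 were read from lists chosen with earlier results of these data known. Among 8 tested regulators of HIF, the Esrrb hairpin called 0 in the limma fit (1 at an unadjusted p under 0.05, median 0.06). The Sox2 hairpin called 3 higher and 1 lower (median 0.16) and both hairpins 1 higher (median -0.02). The shares called were 0, 50 and 12.5%, beside 11.6, 43.2 and 44.4% of all genes. Cited2, which competes with HIF for the coactivators Ep300 and Crebbp, rose by 0.62 (adjusted p 4.07e-04) with the Sox2 hairpin and by 1.03 (adjusted p 2.88e-06) with both. Arnt, the partner of HIF-1alpha, rose by 0.34 and Eloc, a subunit of the von Hippel-Lindau complex, by 0.37 with the Sox2 hairpin, and Ep300 fell by 0.23. With the Esrrb hairpin Eloc gave -0.21 (adjusted p 0.210). Epas1, the HIF-2alpha gene, had a probe detected on all 4 Esrrb arrays, at 17.6 to 41.4, and on none of the other 12, where it read -5.6 to 35.6, so no difference is given for it. Epas1 is the gene that passed the unadjusted threshold there, and it enters that median. It passed the detection filter only through the Esrrb group, where it read high, so its p is not read as a change.

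Of 24 tested hypoxia-induced genes that are no members, 4 were higher and 1 lower with the Esrrb hairpin, 11 higher and 2 lower with the Sox2 hairpin, and 6 higher and 1 lower with both, with medians of 0.06, 0.18 and 0.15. Zfp36, which promotes decay of AU-rich transcripts, rose by 0.58, 1.20 and 1.44. Ddit4, an inhibitor of mTORC1 signalling, rose by 0.42, 0.75 and 0.77. Hilpda, a lipid droplet protein, rose by 0.84 and 0.66, and Vldlr, a lipoprotein receptor, by 0.62 and 0.67, with the Sox2 hairpin and with both. Bhlhe40, a transcriptional repressor, rose by 0.49 with the Esrrb hairpin, where Ak4, a mitochondrial adenylate kinase, fell by 0.51. The shares called, 20.8, 54.2 and 29.2%, stand beside 11.6, 43.2 and 44.4% of all genes.

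The routes that leave or follow glycolysis showed single changes. Among 7 genes of pyruvate entry into mitochondria, Pdk4, another kinase of pyruvate dehydrogenase, fell by 0.41 with the Esrrb hairpin (adjusted p 0.0405) and rose by 0.51 with the Sox2 hairpin (adjusted p 0.00342). Pdp2, the phosphatase that opposes these kinases, fell by 0.36 with the Esrrb hairpin and by 0.63 with both, and Pdhb, a subunit of the enzyme itself, fell by 0.39 with both. The list counted 0 higher and 2 lower with the Esrrb hairpin, 1 and 0 with the Sox2 hairpin, and 0 and 2 with both. Medians were -0.21, -0.11 and -0.28. The shares called were 28.6, 14.3 and 28.6%, beside 11.6, 43.2 and 44.4% of all genes.

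Of 5 pentose phosphate genes, 0 were called with the Esrrb hairpin (also 0 at an unadjusted p under 0.05) and 1 with the Sox2 hairpin (Rpia, a pentose phosphate isomerase, 0.20). Both hairpins lowered 2: Tigar, a fructose bisphosphatase, was not well above background on the dual arrays and at least 1.40-fold lower there, and Taldo1, the transaldolase, fell by 0.24. Medians were 0.04, -0.08 and -0.19. The shares called were 0, 20 and 40%, beside 11.6, 43.2 and 44.4% of all genes. Of 7 genes of gluconeogenesis and fructose use, 1 was higher and 1 lower with the Esrrb hairpin. The counts were 2 and 3 with the Sox2 hairpin, and 2 and 4 with both. Their medians were 0.03, -0.25 and -0.29, and their shares called 28.6, 71.4 and 85.7%. Khk, ketohexokinase, rose by 0.40, 0.61 and 0.65, and Fbp2, the muscle fructose bisphosphatase, fell by 0.65, 0.60 and 0.61. G6pc3, a glucose-6-phosphatase, rose by 0.53 and 0.48 with the Sox2 hairpin and with both, where Pcx, pyruvate carboxylase, fell by 0.40 and 0.37.

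The tricarboxylic acid cycle, with 14 genes tested, had 0 calls with the Esrrb hairpin (1 at an unadjusted p under 0.05), 1 higher and 1 lower with the Sox2 hairpin, and 1 higher and 4 lower with both, with medians of -0.01, 0.03 and -0.11. Dlst, a subunit of the oxoglutarate dehydrogenase complex, rose by 0.29 and 0.34 with the Sox2 hairpin and with both, while Idh3a, a subunit of isocitrate dehydrogenase, fell by 0.21 and 0.33. With both hairpins Sdhb, the iron-sulfur subunit of succinate dehydrogenase, fell by 0.53 and Idh3g by 0.30. The cycle's shares called, 0, 14.3 and 35.7%, were below those of all genes.

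The 2 array sets gave the same sign for every member called in the 7 comparisons. Taken alone, the A and B arrays called 0, 8 and 7 members against GFP with the Esrrb hairpin, the Sox2 hairpin and both, and the C and D arrays called 3, 9 and 10. The first set tested 29 members and the second 31. Of all genes, the A and B arrays called 3.91, 25 and 29.9% and the C and D arrays 4.04, 27 and 29.1%. In both sets Pfkp, Pdk1, Eno3, Egln1, P4ha2 and Ndrg1 passed with the Sox2 hairpin and with both. With 2 arrays per group and set, none of the 5 calls for the Esrrb hairpin passed in the A and B set.

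**Figure D4:**
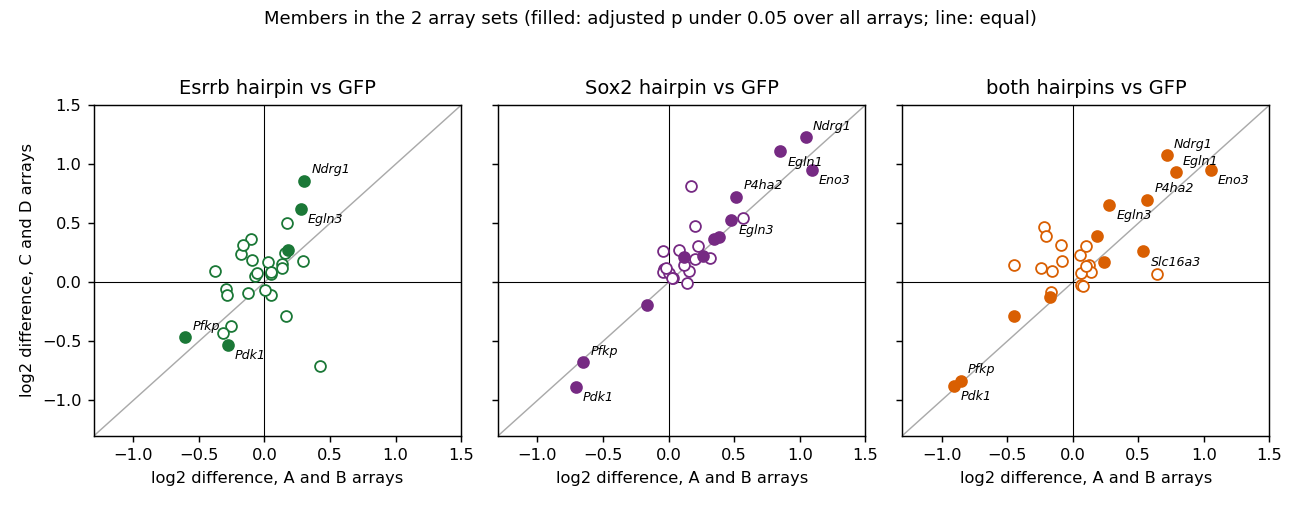
Log2 difference from GFP on arrays A and B (x axis) and on arrays C and D (y axis) for the 29 members, 1 panel per knockdown, with the line of equal values. Filled points passed an adjusted p of 0.05 over all 16 arrays. For the Sox2 hairpin and for both, the named members lie on the same side of 0 in both sets, and for the Esrrb hairpin Ndrg1, Egln3 and Pdk1 lie farther from 0 in the C and D arrays.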

How the data were processed

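Transcripts of 4 hairpin groups were measured on 16 Illumina arrays, 4 per group. Per the file headers, the authors deposited non-normalized intensities on a linear scale; they run from -33.2 to 55739.9, so a background had been subtracted, and the sources used here do not give that step. The deposited detection score rises with intensity and was taken as 1 minus a detection p. A further table by the authors holds 1 processed ratio per probe and group, whose scaling and centring are not stated; it served only to compare signs. Of 25697 probes, 23978 had 1 gene symbol, 0 several and 1719 none, and 23962 were matched by gene identifier.

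With limma 3.58.1 in R 4.3.3 the background was modelled from the detection p (neqc), arrays were quantile-normalized and log2 was taken with an offset of 16. Probes with a score above 0.99 on all 4 arrays of at least 1 group were kept (11591), and the brightest stood for its gene (8248 genes). A model with 1 mean per group (lmFit, eBayes) gave 7 contrasts, each the group named first minus the other. The number of arrays limits the precision. The fit was tested on simulated data. The members and lists were chosen with earlier results of these data known. Array values were printed for members called against GFP with a log2 difference of at least 0.5, and for Hif1a and Slc2a1. From each list of other pathway genes, up to 4 called genes with the largest difference were named per comparison, or 2 where none was called.

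The labels share the letters A to D. Deviations from the group means correlated at 0.14 to 0.45 between arrays of the same letter in different groups (24 pairs), at 0.22 to 0.45 between different letters of the same array set, and at -0.45 to -0.14 across sets. The medians were 0.32 for the same letter and 0.33 for different letters of the same set. By these correlations the arrays group by array set, and arrays of the same letter were no more alike than others of their set. The fit has no block, and the blocks were alternatives. Promoter windows are RefSeq's, build GRCm38.p6, which may differ from the arrays' annotation. Alternatives tried were the letter and the set as blocks, each set alone, other scalings, offsets, filters and probe rules, and leaving out each array.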

Additional observations from a re-analysis of the deposited data

Results flagged for a closer look

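In 6 of 36 groups of 4 arrays (9 named members in 4 hairpin groups), 1 array stood apart from the other 3. Its gap to the nearest of them was taken as a share of the group's range of normalized log2 values. That share was above Dixon's 95% critical value for 4 samples. Chance gives this in about 1 in 20 groups. Pfkp was lowest on Sox2 array B, with a share of 0.96. Eno3 was lowest on Sox2 array C (0.93) and highest on dual array B (0.90). Egln1 was highest on Sox2 array C (0.93). Slc2a1 was highest on Esrrb array A (0.85) and lowest on dual array B (0.90). These ranks are those after normalization. In deposited intensity Slc2a1 was highest on Esrrb array B in its group, and Eno3 on dual array C in its group. Leaving out dual array B moved the Slc2a1 difference of the dual knockdown from 0.12 to 0.24 and its adjusted p from 0.353 to 0.0038. The calls of Pfkp, Eno3 and Egln1 against GFP held without each of these arrays.

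By limma's interaction term, the effect of the Esrrb hairpin differed between cells with and without the Sox2 hairpin for Ndrg1 and Pfkm. The log2 values were -0.82 (adjusted p 0.0105) and -0.42 (adjusted p 0.0390). The Pfkm call was lost without any of 12 arrays, at adjusted p-values of up to 0.0818. The Esrrb hairpin changed Esrrb RNA by -2.11 without the Sox2 hairpin and by -0.56 with it. The part of this unequal loss in both interactions was not tested.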

How the results depend on the processing

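Of 52 calls of members over the 7 comparisons, 50 kept their sign in every alternative run. The exceptions were Bnip3l with the Sox2 hairpin without normalization between arrays and Pfkl for dual against Esrrb with kept probes averaged. Of the 52, 15 missed the threshold in at least 1 refit that left out 1 array. The counts of members called ran over these refits from 3 to 6 (Esrrb against GFP), 10 to 13 (Sox2 against GFP), 11 to 13 (dual against GFP), 7 to 15 (dual against Esrrb), 0 to 1 (dual against Sox2), 7 to 10 (Esrrb against Sox2) and 1 to 2 (interaction). Scaling each array by its median over all probes gave 0, 7, 7, 3, 0, 4 and 0 in the same order, the 3 for dual against Esrrb all higher, with 201, 1622 and 1844 of all genes called against GFP in place of 959, 3565 and 3663. Scaling by the median of probes detected on every array, an alternative chosen after seeing the data, gave 5, 11, 12, 10, 1, 9 and 2. The A and B arrays alone gave 0 for Esrrb against GFP, 7 for dual against GFP, 6 for dual against Esrrb, 0 for dual against Sox2, 5 for Esrrb against Sox2 and 0 for the interaction. The C and D arrays alone gave 3, 6, 0, 5 and 0 for Esrrb against GFP, dual against Esrrb, dual against Sox2, Esrrb against Sox2 and the interaction. Dual against Sox2 gave 0 without normalization and with no filter on detection, and the interaction gave 1 with no filter and 1 with kept probes averaged. The causes were not tested, but each set alone has 2 arrays per group. With the array letter as a replicate block the counts were 6, 12, 12, 11, 1, 9 and 2, and no member call other than those of Hk1, Eno3 and Bnip3l named above changed.

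Other signs turned for values that were not called. Arrays A and B alone and no normalization gave Hif1a values of -0.17 and -0.031 with the Esrrb hairpin and of -0.021 and -0.051 with the Sox2 hairpin, and arrays C and D gave 0.15 with both hairpins. P4ha2 with the Esrrb hairpin came to 0.0011 on arrays A and B. Slc2a1 with the Esrrb hairpin came to -0.058 on these, -0.025 under median scaling, -0.0088 over detected probes and -0.11 without normalization, and with both hairpins to -0.087 on arrays A and B and -0.052 without normalization. Leaving out 1 array gave -0.058 to 0.20, -0.028 to 0.18 and -0.27 to 0.013 for Hif1a in the 3 comparisons, -0.078 to 0.021 for P4ha2 and -0.025 to 0.0495 for Slc2a1 with the Esrrb hairpin. The authors' deposited ratios had the same sign as the log2 differences for 27, 28 and 29 of 29 members, and for all 5, 12 and 12 called. Of 9 members with several kept probes, 6, 7 and 5 had 1 sign in all probes and 0 had calls in opposite directions.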
